A study of Mus musculus with 12 samples.

Results

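LIM homeobox genes and the LIM cofactors that work with them were followed in sorted neurons of the mouse pontine nucleus, the hindbrain relay through which the cortex reaches the cerebellum. The group holds 8 of the 23079 genes in the count table. They are the LIM homeobox genes Lhx2 and Lhx9, the LIM-only genes Lmo1, Lmo2, Lmo3 and Lmo4, and the LIM domain binding genes Ldb1 and Ldb2. Members were taken by gene symbol, but the family was chosen by an earlier look at these counts, namely the changes against the reference libraries and between the groups. Adjusted p values printed for those comparisons therefore describe the fit and are not independent evidence. All 8 members were among the 14732 genes that passed the filter on low counts.

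LIM domains are zinc-binding folds that hold other proteins. A LIM homeodomain protein binds DNA through its homeodomain and carries LIM domains beside it. LDB proteins form dimers and link the LIM domains of these factors into larger complexes. LMO proteins are little more than LIM domains without a homeodomain; they bind the same LDB proteins, and can compete with LIM homeodomain proteins for them or bridge them to bHLH and GATA factors. In the mouse hindbrain, Lhx2 and Lhx9 are known from neurons that arise from the Atoh1 (Math1) domain of the rhombic lip, the source of pontine neurons.

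The 12 libraries came from CD-1 embryos at E18.5, shortly before birth, with 2000 cells sorted per replicate. The labels give 3 groups. Math1tdTomato (n = 6) carries a red reporter through Math1 and served as the reference. Hoxa5tdTomato (n = 3) is labelled through Hoxa5, a homeobox gene of positional identity along the hindbrain, and its column names give a Hoxa5 cre. Math1Hoxa5-IRES-GFP (n = 3), called the driven group here, has columns that name Math1, Cag and lsl Hoxa5. A Cre reporter stays on once switched on, so the tdTomato of the Cre groups records past as well as present activity of the driver. Column names of 3 references contain creErt2 and those of the other 3 contain tdT. Following these words, the first 3 were placed with Hoxa5tdTomato (set 1) and the other 3 with the driven group (set 2), although no name states this pairing. Libraries of set 1 held 9973484 to 13302076 counts and those of set 2 held 22355961 to 29820776. Sequencing depth therefore cannot be told apart from the set. Driven replicate 3 stood apart from the other libraries, with the fewest genes detected (13074 against up to 16290).

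Hoxa5 gave a partial check of the labels. It was measured at 127, 222 and 119 CPM (edgeR's CPM, a gene's reads relative to the library size after TMM scaling) in Hoxa5tdTomato, and at 4.35 to 32.2 CPM in the references. In the driven group it was 9.73, 16.8 and 82.0 CPM. The first group lay above every reference, with a log2 fold change of 3.46 ± 0.59 (SE) and an adjusted p of 0.00712 in edgeR. Within set 1 the change was 3.53, not past the threshold of 0.05 (adjusted p = 0.0698). Only replicate 3 of the driven group lay above every reference (1.35 ± 0.59, adjusted p = 0.255), so the labelled Hoxa5 allele was not visible as a rise in this count. Whether the table counts reads of that allele is not given in the sources used here. All 9 markers of pontine and Atoh1 lineage neurons were detected in each group. Their summed level was 4259 to 4790 CPM in Hoxa5tdTomato, below the 6108 to 8183 CPM of the references. In the driven group it was 5824 to 8142 CPM. The sum is weighted to the most abundant markers. In Hoxa5tdTomato edgeR called 1 of the 9 lower, where 0.889% of all tested genes were called lower. The median log2 fold change of the 9 there was -0.28, and -0.14 within set 1. In bulk samples such as these, fewer cells of a type and less RNA per cell cannot be told apart.

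The start sites of the members that moved most differ in their base composition. RefSeq sequence on GRCm38.p6 was at hand for 6 of the 8 members, and the 250 bases before the annotated start are shown for the genes whose levels separate the groups below. Capitals mark TAAT or its reverse complement ATTA, the core recognised by many homeodomain proteins, LIM and Hox proteins among them.
Lmo3 (chr6:138581969-138582218, minus strand): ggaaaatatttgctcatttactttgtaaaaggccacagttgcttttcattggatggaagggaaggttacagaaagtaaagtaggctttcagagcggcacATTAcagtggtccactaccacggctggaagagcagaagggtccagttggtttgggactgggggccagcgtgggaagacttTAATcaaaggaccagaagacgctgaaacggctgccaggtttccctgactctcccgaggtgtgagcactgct
Lmo1 (chr7:109175208-109175457, minus strand): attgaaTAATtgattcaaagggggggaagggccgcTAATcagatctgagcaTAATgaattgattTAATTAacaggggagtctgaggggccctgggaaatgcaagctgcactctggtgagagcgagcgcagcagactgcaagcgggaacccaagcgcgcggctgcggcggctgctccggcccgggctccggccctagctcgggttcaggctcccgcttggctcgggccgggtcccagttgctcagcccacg
Lmo4 (chr3:144205256-144205505, minus strand): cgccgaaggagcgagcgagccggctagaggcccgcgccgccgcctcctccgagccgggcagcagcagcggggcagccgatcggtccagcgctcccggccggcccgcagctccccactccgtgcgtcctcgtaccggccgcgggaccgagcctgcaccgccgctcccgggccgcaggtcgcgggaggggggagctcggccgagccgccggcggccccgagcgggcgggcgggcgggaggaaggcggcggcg
Lhx2 (chr2:38339031-38339280, plus strand): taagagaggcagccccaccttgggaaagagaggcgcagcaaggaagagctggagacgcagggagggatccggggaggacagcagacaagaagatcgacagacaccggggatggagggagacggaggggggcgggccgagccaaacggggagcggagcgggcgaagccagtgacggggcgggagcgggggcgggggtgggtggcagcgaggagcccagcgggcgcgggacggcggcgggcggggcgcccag

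The window of Lmo3 holds 2 TAAT cores, at 151 and 71 bases before the start (-151 and -71). The annotated Lmo3 gene extends further upstream than this start, to position 138582206, so other transcripts begin elsewhere. Lmo1 holds 5 cores between -244 and -184, of which the last pair overlaps in a single TAATTA. Lmo4 and Lhx2 hold none, and their windows are 82.4% and 72.8% GC against a median of 52.0% over 27025 promoters of the same length. Among those promoters 55.4% hold at least 1 TAAT core on either strand, 31.2% at least 2 and 5.85% at least 5. TGATNNAT, a Hox and Pbx type site, and TGACAG, a Meis type site, matched none of the 4 windows on either strand, and 7.89% and 15.9% of all promoters hold them. The E-box CANNTG, the site of bHLH proteins, occurred 2 times before Lmo3 and once before Lmo1, at positions that do not overlap the TAAT cores, and 66.1% of promoters hold it. These matches describe letters in a short window and say nothing of binding.

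Compared per length, Lmo4 and Lmo3 had the highest means of the family in every group, and their order changed between the groups. In the references the mean level was 155 ± 12.5 RPKM for Lmo4 (SD, n = 6; RPKM is CPM per kilobase of gene length), 33.2 ± 9.93 for Lmo3, 18.9 ± 4.80 for Ldb1, 13.0 ± 3.40 for Lmo2 and 11.9 ± 8.62 for Lhx2. Lmo1, Ldb2 and Lhx9 had means under 1 RPKM. The lowest Lmo4 value (140 RPKM) was far above the highest Lmo3 value (49.8), while the ranges of Ldb1, Lmo2 and Lhx2 overlapped. In Hoxa5tdTomato the order began with Lmo3 at 98.3 ± 14.6 RPKM (n = 3) and Lmo4 at 79.4 ± 12.3, ranges that overlap. The driven order began with Lmo3 at 204 ± 32.1 RPKM, above Lmo4 at 61.6 ± 20.9 with no overlap, then Lmo2 at 38.2 ± 26.1 and Ldb1 at 24.3 ± 13.0. Lhx2, next after Lmo2 in the references, ranked below Lmo1 in Hoxa5tdTomato (1.72 ± 0.83 RPKM) and below Ldb2 in the driven group (0.328 ± 0.464).

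**Figure D1:**
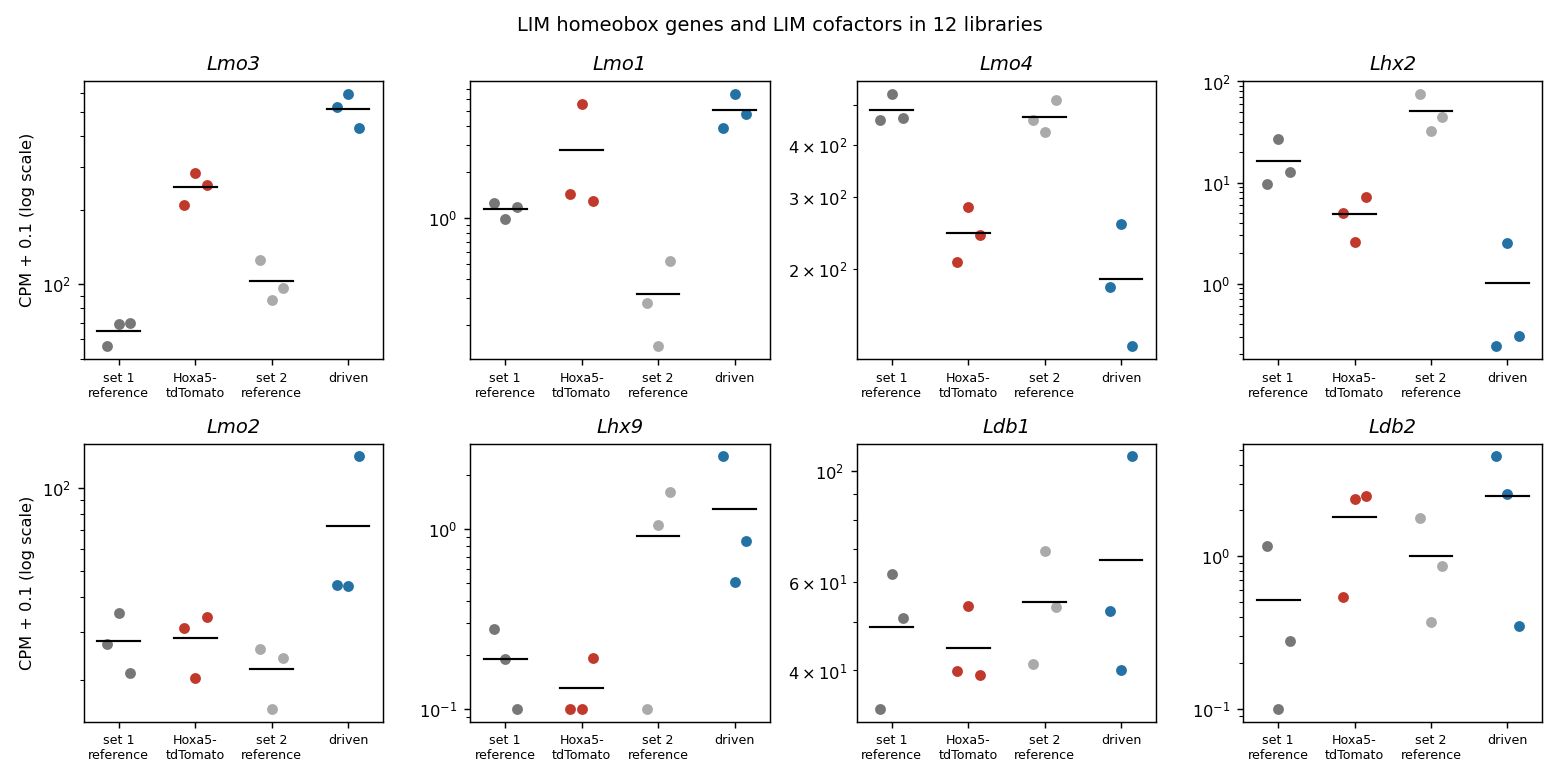
CPM of the 8 genes in each of 12 libraries, with 0.1 added and a log axis, separately scaled per panel; points are libraries, bars are means of 3, and the groups are the references of set 1, Hoxa5tdTomato, the references of set 2 and the driven group. Lmo3 is higher and Lmo4 and Lhx2 are lower in every Hoxa5tdTomato and driven library than in every reference.

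Lmo3 encodes a LIM-only protein of neurons that partners with bHLH factors. It stood at 55.9, 69.0 and 69.5 CPM in the references of set 1 and at 126, 86.5 and 96.8 CPM in those of set 2. In Hoxa5tdTomato it reached 210, 284 and 252 CPM. The driven libraries reached 525, 594 and 432 CPM. The 3 kinds of library formed separate ranges, references lowest and the driven group highest. Lmo3 rose by a log2 fold change of 1.56 ± 0.21 in Hoxa5tdTomato (2.96-fold, edgeR adjusted p = 0.00103) and by 2.62 ± 0.21 in the driven group (6.15-fold, adjusted p = 1.45e-06). Both comparisons share the references. Against the references of its own set, the change was 1.94 ± 0.19 (3.84-fold, adjusted p = 0.000311) in Hoxa5tdTomato and 2.33 ± 0.19 (5.02-fold, adjusted p = 8.94e-06) in the driven group. Lmo3 passed the threshold in 22 of 22 alternative settings in each comparison with the references, at changes of 1.46 to 1.97 and 2.33 to 2.77.

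Lmo4 encodes the most widely expressed LIM-only protein, known in cortical and motor neurons. It was measured at 461, 534 and 465 CPM in the references of set 1 and 460, 432 and 515 CPM in those of set 2. In Hoxa5tdTomato the values were 208, 284 and 242 CPM. Driven libraries gave 181, 258 and 130 CPM. Both groups lay wholly below the references and overlapped each other. Lmo4 fell by 0.97 ± 0.18 on the log2 scale in Hoxa5tdTomato (1.95-fold lower, edgeR adjusted p = 0.0141) and by 1.33 ± 0.19 in the driven group (2.52-fold lower, adjusted p = 0.000901). Within sets the values were -0.99 ± 0.20 (adjusted p = 0.0384) and -1.31 ± 0.20 (adjusted p = 0.00516). The first call was lost without Hoxa5tdTomato replicate 1 (adjusted p = 0.142), replicate 2 (0.0587) or replicate 3 (0.0856), with a direction that stayed negative (-1.09 to -0.81 over 22 alternatives). The second was lost in the fit of the 6 set 2 libraries alone (adjusted p = 0.132). In Hoxa5tdTomato the fall in Lmo4 came with the lower sum of pontine neuron markers given above, whose part in it was not tested; in the driven group that sum covered much the same range as in the references.

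The ratio of Lmo4 to Lmo3 combines the values given above. As Lmo3 lay above and Lmo4 below every reference in both groups, the separation of the ratio from the references followed from them. Per length, Lmo4 exceeded Lmo3 by 5.50 to 6.77 times in the references of set 1 and by 3.00 to 4.37 times in those of set 2. In Hoxa5tdTomato the ratio of Lmo4 to Lmo3 was 0.789, 0.812 and 0.821, close to parity and alike in its 3 libraries. Among driven libraries Lmo3 exceeded Lmo4 by 2.80 to 4.04 times. The ranges of the 4 column-name groups did not overlap, and the ratio also differed between the 2 sets of references.

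**Figure D2:**
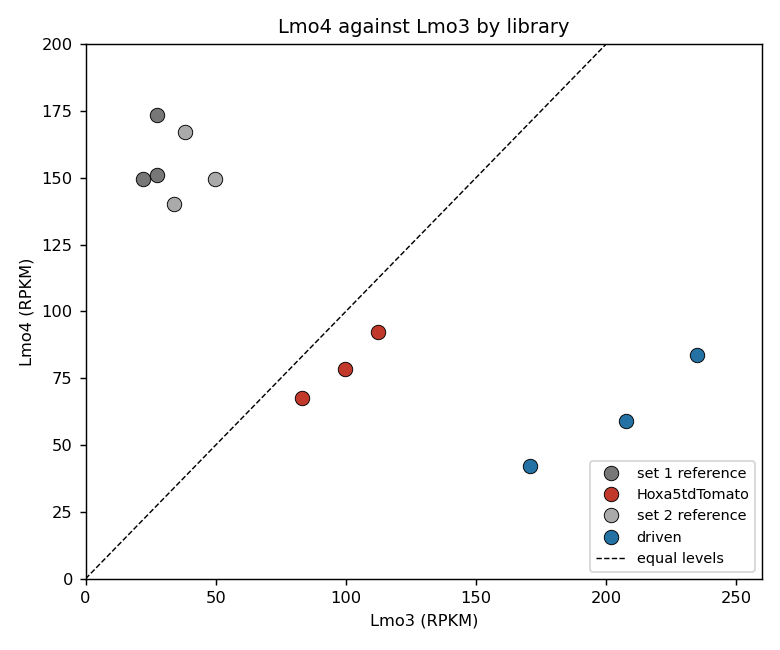
Lmo4 against Lmo3 in RPKM, 1 point per library, coloured by group; the dashed line marks equal levels. All 6 references lie above the line, the 3 Hoxa5tdTomato libraries lie just under it and the 3 driven libraries lie far below it at the right.

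Lmo1, a neuronal LIM-only gene close to Lmo3 in sequence, was scarce. It was counted at 1.15, 0.888 and 1.09 CPM in the references of set 1 and at 0.178, 0.0453 and 0.429 CPM in those of set 2. Hoxa5tdTomato held 1.33, 5.52 and 1.19 CPM, and the driven group 3.77, 6.43 and 4.72 CPM. Every library of both groups lay above every reference, by a narrow margin in Hoxa5tdTomato, where replicate 2 carried the mean. The edgeR changes were 2.12 ± 0.91 (adjusted p = 0.285) and 3.00 ± 0.91 (adjusted p = 0.104). Without Hoxa5tdTomato replicate 2 the first was 1.02. Within set 2 the driven change was 4.47 ± 1.12 (edgeR adjusted p = 0.0819). DESeq2 called the driven change in the pooled groups (adjusted p = 0.0127) and within set 2 (9.39e-05). Reads of Lmo1 and Lmo3 could be split between these related genes by the counting, of which no source gives the rule for shared reads.

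Lmo2 encodes the LIM-only protein best known from blood and endothelial cells, where it bridges TAL1, E proteins, GATA factors and LDB1. Its values were 26.9, 35.0 and 21.2 CPM in the references of set 1, and 25.9, 15.6 and 24.0 CPM in those of set 2. Hoxa5tdTomato, at 30.9, 20.3 and 33.7 CPM, lay within the reference range (0.19 ± 0.35, edgeR adjusted p = 0.873). The driven libraries, at 44.1, 43.8 and 130 CPM, all lay above it. The rise in the driven group was 1.55 ± 0.33 (2.93-fold, adjusted p = 0.0200), and it rested in part on replicate 3, the library that stands apart. Without that replicate the change was 0.83 (adjusted p = 0.171), and within set 2 it was 1.73 ± 0.41 (adjusted p = 0.0675). The call was lost in 6 of 22 alternatives, among them the fit without replicate 3 of the set 1 references (adjusted p = 0.0516) and that of the 6 set 2 libraries alone (0.392). DESeq2, with all driven libraries, called the rise in the pooled groups (adjusted p = 0.00111) and within set 2 (0.00258).

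Lhx2 encodes a LIM homeodomain factor that acts in forebrain, eye and limb development and in axon guidance of commissural neurons. The references of set 1 held 9.59, 26.8 and 12.8 CPM, and those of set 2 75.6, 32.2 and 44.0 CPM, with no overlap between the sets. Hoxa5tdTomato held 4.89, 2.49 and 7.14 CPM. The driven group held 0.140, 2.43 and 0.201 CPM, from raw counts of 3, 54 and 4. Every Hoxa5tdTomato library lay below every reference, and every driven library lay below every Hoxa5tdTomato library. Lhx2 fell by 5.16 ± 0.94 on the log2 scale in the driven group (35.8-fold lower, edgeR adjusted p = 0.00732) and stood at -5.75 ± 0.90 within set 2 (54.0-fold lower, adjusted p = 0.00524). Leaving out driven replicate 2, which held most of the driven reads, took the pooled value to -7.57, and leaving out replicate 1 took it to -4.65. The fit of the 6 set 2 libraries alone missed the threshold (adjusted p = 0.106). In Hoxa5tdTomato the value was -2.80 ± 0.81 with an adjusted p of 0.0931; within set 1 it was -1.76 ± 0.76 (adjusted p = 0.496). Lhx2 was called in Hoxa5tdTomato by the pooled edgeR fit without driven replicate 2 (adjusted p = 0.0324) or without driven replicate 3 (0.0309). DESeq2 called it in the pooled groups (0.00605), but not within set 1, where the members it called were Lmo3 and Lmo4. The edgeR fit of the 6 set 1 libraries alone did call Lhx2 (0.0319).

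Lhx9, the close relative of Lhx2 in the same rhombic lip neurons, was near the limit of counting. Raw counts were 2, 1 and 0 in the references of set 1 and 0, 21 and 35 in those of set 2. Hoxa5tdTomato libraries held 0, 0 and 1 reads and driven libraries 52, 9 and 15. A library at 0 allowed up to 0.107 to 0.274 CPM, taking 3 counts as the floor. The read density was 20.4 times higher in the references than in Hoxa5tdTomato (95% exact binomial interval 3.52 to 819.8), but 3.31 times (0.266 to 174) against the references of set 1 alone. Most Lhx9 reads were in set 2, and its references held 8.53 times (2.77 to 42.6) the density of the set 1 references. These intervals cover counting error only. No edgeR comparison of Lhx9 passed the threshold, with an adjusted p of 0.424 in Hoxa5tdTomato and 0.676 in the driven group. The low Lhx2 of the driven group was therefore not accompanied by a measurable fall in Lhx9 (1.35 ± 1.42).

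Ldb1 and Ldb2 encode the adaptors that the other members bind. Ldb1 was measured at 33.4, 62.2 and 50.8 CPM in the references of set 1, 41.1, 69.2 and 53.5 in those of set 2, 39.8, 53.7 and 39.2 in Hoxa5tdTomato and 52.5, 40.1 and 107 in the driven group. All ranges overlapped. The edgeR changes were -0.22 ± 0.30 (adjusted p = 0.817) in Hoxa5tdTomato and 0.36 ± 0.29 (adjusted p = 0.566) in the driven group, where the value without replicate 3 was -0.16. Exons of Ldb1 overlap those of Pprc1 on the opposite strand. As no strand setting is given, reads in the shared stretch cannot be assigned to either gene, and their share was not measured. Ldb2 was scarce, at 0 to 1.68 CPM in the references, 0.445, 2.29 and 2.38 in Hoxa5tdTomato and 4.42, 2.47 and 0.251 in the driven group. Its changes of 1.34 ± 1.15 (adjusted p = 0.677) and 1.82 ± 1.14 (adjusted p = 0.443) were close to their errors.

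Counted over the family, edgeR called 1 of 8 members higher (Lmo3) and 1 lower (Lmo4) in Hoxa5tdTomato, where 0.842% of all tested genes were called higher and 0.889% lower (1.73% in all). Among driven libraries 2 members were called higher (Lmo3 and Lmo2) and 2 lower (Lmo4 and Lhx2), where 1.3% of genes were called higher and 0.543% lower (1.84% in all). Levels of the groups did not overlap for 4 of 8 members in Hoxa5tdTomato, against 14.1% of all genes, and for 5 of 8 in the driven group, against 6.37%. The family was chosen with these contrasts known, and nothing is read from these shares. Against the references of the own set, 0.557% of genes were called in Hoxa5tdTomato and 0.862% in the driven group, and the members called were the same except Lmo2. The median change of the 8 members was -0.02 in Hoxa5tdTomato and 1.45 in the driven group, against a median within 0.01 of 0 over all tested genes in both.

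**Figure D3:**
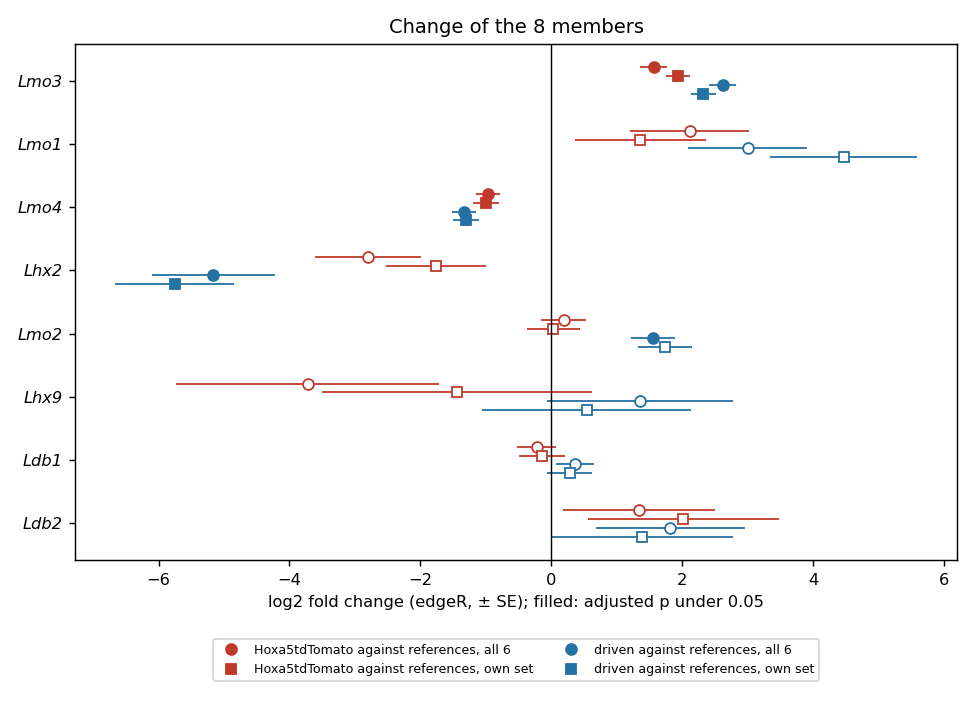
Log2 fold changes of the 8 genes against the references (edgeR, bars are standard errors), with circles for all 6 references and squares for the references of the own set, in red for Hoxa5tdTomato and blue for the driven group; filled symbols have an adjusted p under 0.05. Lmo3 is filled to the right and Lmo4 to the left in both groups and both fits; Lhx2 is filled in both fits of the driven group, and Lmo2 only there with all 6 references.

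Set against each other, Hoxa5tdTomato and driven neurons differed most plainly in Lmo3, which was 1.06 ± 0.25 lower in Hoxa5tdTomato on the log2 scale (2.08-fold, edgeR adjusted p = 0.0374, and 0.00328 with the 4 column-name groups). It was the only member called, where 0.916% of genes were called higher and 2.43% lower (3.35% in all, and 8.08% with 4 groups), and the 3 libraries of each group did not overlap. The call was lost in 6 of 21 alternatives, among them without any single Hoxa5tdTomato replicate (adjusted p = 0.116 to 0.151), without driven replicate 2 (0.0707) and with total counts as the only scaling (0.0886). Lmo4 differed by 0.37 ± 0.20 (adjusted p = 0.310). Lhx2 was higher in all 3 Hoxa5tdTomato libraries by 2.36 ± 0.89 and Lmo2 lower in all 3 by 1.36 ± 0.41, with adjusted p values of 0.129 and 0.0676; DESeq2 called both (0.0427 and 0.0220). Levels did not overlap for 4 of 8 members, against 27.7% of all genes. These groups belong to different sets, so genotype, depth and set cannot be told apart here.

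The within-set changes were compared directly. If the pairing of references with groups is right, this cancels a shift that the libraries of a set share. Each group occurs in only 1 set, so an effect of set or depth that differs between a group and its references stays in the contrast. The difference (Hoxa5tdTomato change minus driven change) was -0.39 ± 0.26 for Lmo3 and 0.31 ± 0.28 for Lmo4, with edgeR adjusted p values of 0.740 and 0.824. For Lhx2 it was 3.99 ± 1.10, with an unadjusted p of 0.00228 and an adjusted p of 0.480; DESeq2 called it (4.04, adjusted p = 0.0387), and edgeR did so without driven replicate 2 (6.42, adjusted p = 0.0291). For Lmo2 the difference was -1.71 ± 0.57 (adjusted p = 0.556). No member was called by edgeR, 3 of 8 had an unadjusted p under 0.05, and DESeq2 called 1. Over all genes edgeR called 0, or 0%, with 1181 at an unadjusted p under 0.05, and DESeq2 called 76.

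The references themselves, which carry the same label, differed between sets for some members. Lhx2 and Lmo3 were lower and Lmo1 higher in all 3 references of set 1 than in all 3 of set 2. The edgeR values were -1.63 ± 0.74 for Lhx2 (adjusted p = 0.370), -0.67 ± 0.18 for Lmo3 (adjusted p = 0.0918) and 2.22 ± 1.04 for Lmo1 (adjusted p = 0.386). Lmo4 differed by 0.05 ± 0.20 (adjusted p = 0.962). None of the 8 passed in edgeR, 3 had an unadjusted p under 0.05, and DESeq2 called Lmo3 (adjusted p = 0.0236), where edgeR called 1.34% of all genes. For Lmo3 this gap was smaller than the rise in either group, while for Lhx2 it was close to the within-set value of Hoxa5tdTomato.

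Of 37 other listed genes of the pathway 24 were tested. Among 10 further LIM homeobox genes 3 had no read in any library (Lhx3, Lhx6 and Lhx8) and 2 were tested. Lhx1, a factor of spinal interneurons, was the most abundant of the list. Against the references Lhx1 stood at -1.82 ± 0.54 in Hoxa5tdTomato (edgeR adjusted p = 0.0995; DESeq2 called it at 0.0164). It was 2.70 ± 0.60 lower in Hoxa5tdTomato than in the driven group (edgeR adjusted p = 0.0318). The 6 LDB adaptors and turnover genes, which include the SSBP proteins that stabilise LDB and the ubiquitin ligase Rlim, had 0 edgeR calls in the 3 pooled comparisons. Between Hoxa5tdTomato and the driven group, edgeR with 4 column-name groups called 1 of the 6 higher and 2 lower, and DESeq2 called Ssbp4 higher (adjusted p = 0.00348) and Rlim and Ssbp3 lower (0.0195 and 0.0435) in the pooled groups. Cited2, a transcriptional co-regulator whose protein binds LHX2, was the most abundant of them and stood at 0.67 ± 0.18 in the driven group (adjusted p = 0.0643; DESeq2 called it at 0.00853).

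Among 7 tested bHLH and GATA partners of LMO complexes, 0 were higher and 2 lower in Hoxa5tdTomato. Tcf12, an E protein, fell by 0.84 ± 0.17 on the log2 scale (edgeR adjusted p = 0.0198). Nhlh1, a neuronal bHLH gene, fell by 2.96 ± 0.64 (adjusted p = 0.0266). Within set 1 the values were -0.71 (adjusted p = 0.109) and -1.73 (adjusted p = 0.172), so edgeR made neither call there, while DESeq2 made both (0.0241 and 0.0238). Tcf4, the most abundant of the list and also an E protein, was at -0.56 ± 0.14 (adjusted p = 0.0635); DESeq2 called it (0.0334) and also Nhlh2 (0.00775). Neither tool called any of the 7 in the driven group. Against the driven group, Tcf12 (-0.83, adjusted p = 0.0342), Nhlh1 (-3.90, adjusted p = 0.0223) and its relative Nhlh2 (-2.36, adjusted p = 0.0251) were lower in Hoxa5tdTomato. These groups belong to different sets. Over all genes, the 493 edgeR calls between them became 0, 1 and 1 without Hoxa5tdTomato replicate 1, 2 or 3. That limit also holds for the calls of Lhx1 and Robo3 between these groups. Of 4 tested LMO4 partners, edgeR called 0 in the pooled comparisons. Hdac2, a histone deacetylase gene and the most abundant of them, stood at -0.49 ± 0.13 in Hoxa5tdTomato (adjusted p = 0.0777), and DESeq2 called it there (0.0227) and against the driven group (0.0492).

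Of 5 Atoh1 lineage genes known beside Lhx2 and Lhx9, Robo3, a receptor of commissural axons, was lower in Hoxa5tdTomato (-2.15 ± 0.51, edgeR adjusted p = 0.0393; within set 1 -1.34, adjusted p = 0.287). It stood at 0.16 ± 0.45 in the driven group (adjusted p = 0.898), where Lhx2 was lowest. That value averages over a wide spread, as Robo3 ranged from 133 to 619 CPM among driven libraries, with a median of 215. The references of set 1 held 105 to 196 CPM and those of set 2 held 243 to 556 CPM. The driven median thus lay below every set 2 reference, and a flat Robo3 cannot be read from the pooled value. Robo3 was also 2.31 ± 0.55 lower in Hoxa5tdTomato than in the driven group (adjusted p = 0.0384). Barhl1 was the most abundant gene of that list and was called in neither comparison with the references. In all, edgeR called 0 of the 24 genes higher and 3 lower in Hoxa5tdTomato, where 11 had an unadjusted p under 0.05 and DESeq2 called 7, all lower. It called 0 in the driven group, where 5 had an unadjusted p under 0.05 and DESeq2 called 1. Between both groups edgeR called 5 of the 24, all lower in Hoxa5tdTomato, and DESeq2 called 1 higher and 10 lower. Within sets edgeR called 0 of 24 in either group, with 9 and 4 at an unadjusted p under 0.05, and DESeq2 called 2 and 1. Over all 14732 tested genes, edgeR gave an unadjusted p under 0.05 to 2148 in Hoxa5tdTomato and 2456 in the driven group. Within sets these were 1312 and 2022. DESeq2 called 675 of 14786 genes in Hoxa5tdTomato, 965 of 15102 in the driven group and 1588 of 15429 between both. The lists were chosen with earlier results known, and nothing is read from these counts.

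**Figure D4:**
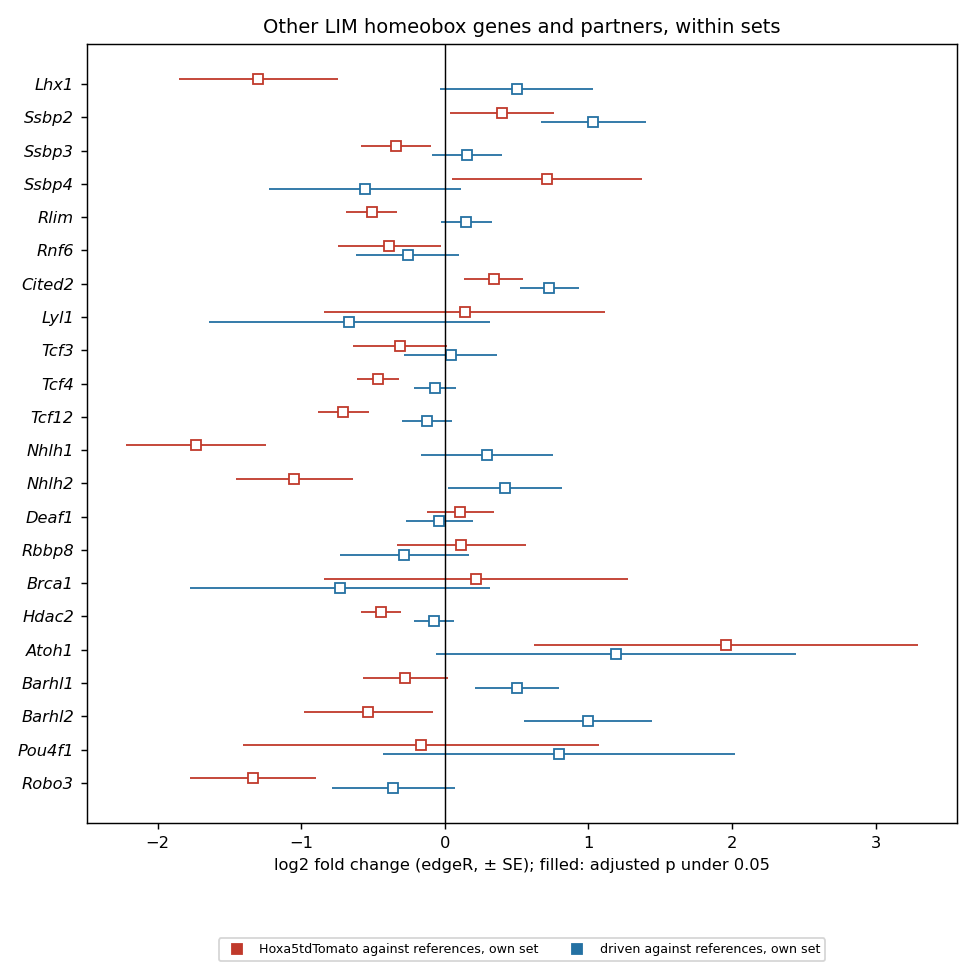
Log2 fold changes within sets (edgeR, bars are standard errors) of 22 tested pathway genes, red for Hoxa5tdTomato and blue for the driven group; 2 tested genes with fewer than 10 reads in a group are left out. All symbols are open because none of these genes had an adjusted p under 0.05 within its set.

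Lmo2 and Ldb2 are also known in the vessel wall, and the summed levels of vascular markers were higher in Hoxa5tdTomato. In the pooled fit edgeR called 2 of 12 tested endothelial and 3 of 9 tested pericyte markers higher there. Over all tested genes 0.842% were called higher. Within set 1 edgeR called 0 of both lists, where 0.557% of all genes were called. All 14 endothelial markers had reads in Hoxa5tdTomato, and their sum was 113 to 194 CPM against 1.60 to 26.9 CPM in the references and 0.803 to 46.0 in the driven group. In the references of set 1 Tie1 was at 0, in those of set 2 Ly6c1, and in the driven group Erg and Egfl7. The sum over 10 pericyte markers was 119 to 250 CPM in Hoxa5tdTomato, 2.50 to 27.99 in the references and 5.42 to 65.7 in the driven group, with Anpep at 0 in both sets of references. Lmo2 stayed within the reference range in Hoxa5tdTomato. The driven library with the most Lmo2 (replicate 3) had an endothelial sum of 0.803 CPM, and that with the most Ldb2 (replicate 1) had 1.12 CPM. Driven replicate 2, with an endothelial sum of 46.0 CPM, held 43.8 CPM of Lmo2 and 2.47 CPM of Ldb2. The sum over 8 astrocyte and radial glia markers was also higher in Hoxa5tdTomato, at 811 to 1165 CPM, than in the references, at 293 to 708 CPM. In the driven group it was 481 to 843 CPM, a range that overlaps both. Gfap was at 0 in Hoxa5tdTomato. The sum over 6 meningeal markers was 9.43 to 14.7 CPM there, 0.729 to 3.99 in the references and 0 to 7.24 in the driven group, with Dcn and Slc6a13 at 0 in Hoxa5tdTomato. The sum over 10 microglia and blood cell markers was 7.54 to 66.1 CPM there, 0.321 to 15.7 in the references and 1.49 to 6.12 in the driven group, with none at 0 in Hoxa5tdTomato. The part of these cell types in the values of Lmo2, Ldb2, Lmo3, Lmo4 and Lhx2 was not tested in either group.

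**Figure D5:**
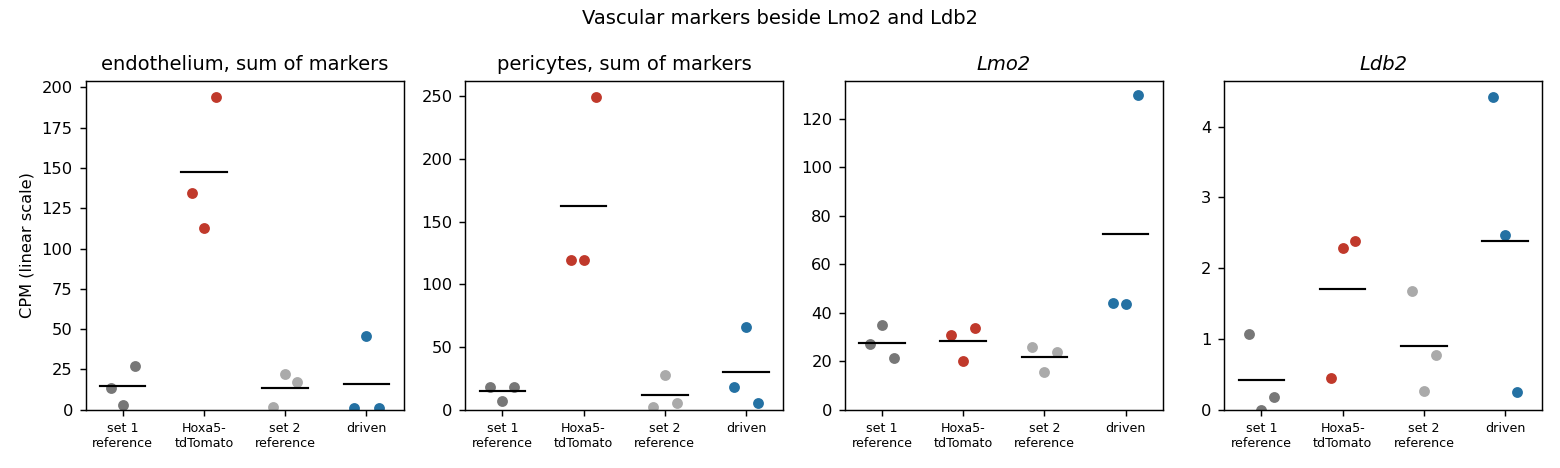
Summed CPM of endothelial and pericyte markers beside the CPM of Lmo2 and Ldb2, on linear axes; points are libraries and bars are means of 3. Marker sums are highest in Hoxa5tdTomato, while Lmo2 is highest in the driven group.

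For each member called against the references, the tested genes with the most similar pattern were listed by Pearson's r of log2 CPM over the 12 libraries, which share the steps between groups and sets. For Lmo3 these were Spock1 (r = 0.968), Nrp2 (0.967) and Prkcb (0.953). For Lmo4 they were Irx2 (0.972), Lphn3 (0.962) and Abcc1 (0.956). For Lhx2 they were Wnt5a (0.949), Nrg1 (0.946) and again Abcc1 (0.944). For Lmo2 they were Sema5a (0.920), Usp22 (0.918) and Skap1 (0.914). Abcc1 is thus near the top for both members that were lower in the driven group.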

How the data were processed

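Sorted pontine nucleus neurons were sequenced in 12 libraries. Per the labels' protocols, SPIA amplification started from 1000 cell equivalents of RNA, and each library from 1 ng of cDNA. The authors deposited raw read counts per gene, with no normalization, and the deposited table also holds each gene's length in bases. The submitters' processing notes name bcl2fastq 1.8.4 and mm10; the sources used here name no aligner, counter, annotation or strand setting.

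Members and gene lists were chosen with earlier results of these data known. Members, listed pathway genes past the threshold in a pooled comparison, the most abundant gene of each list and the 3 genes most like each called member are named. Genes were kept by filterByExpr at a minimum count of 10, scaled by TMM and tested in edgeR 4.0.16 (R 4.3.3) by quasi-likelihood (glmQLFTest), with Benjamini-Hochberg adjustment over 14732 genes and a threshold of 0.05. The pooled fit has 3 label groups, and values within sets come from a fit of 4 column-name groups. DESeq2 1.42.0, other scalings and filters, thinned counts and leaving out each library were alternatives. The scripts were tested on simulated data. The labels do not say that replicates came from separate animals, so p values measure the spread between these samples, which may be technical. Replicate numbers did not pair samples (correlations of deviations from -0.0281 to 0.0493 within sets and from -0.0289 to 0.00907 between Hoxa5tdTomato and the driven group).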

Additional observations from a re-analysis of the deposited data

How the results depend on the processing

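Directions of the members held except for Ldb1, Ldb2 and Lmo4, in comparisons where they were not called. Leaving out single libraries gave -0.16 (without driven replicate 3) to 0.63 for Ldb1 in the driven group, -0.67 to 0.0966 (without driven replicate 3) for Ldb1 and -0.13 (without set 2 reference replicate 1) to 2.75 for Ldb2 in the difference of the within-set changes, and -1.01 to 0.32 (without driven replicate 1) for Ldb2 in Hoxa5tdTomato against driven. Between the references the range was -0.38 to 0.0486 for Ldb1 (0.0389 without set 2 replicate 2) and -0.0195 to 0.12 for Lmo4 (-0.0083 without set 2 replicate 2). With 4 column-name groups and no driven replicate 3, Ldb1 was at -0.24 in the driven group and at 0.0966 in the difference. The cause was not tested.

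Counts of genes over the whole table moved far more. In Hoxa5tdTomato, 255 genes (124 higher, 131 lower) became 82 with 4 groups, 980 in the 6 libraries of the set alone, 675 with DESeq2 and 35 to 728 without single libraries, and split 170 to 70 with total counts as the only scaling. In the driven group, 271 (191 higher, 80 lower) became 127, 10 and 965, 190 to 575 without single libraries, and 105 to 94 with total counts. Between both groups, 493 (135 higher, 358 lower) became 1191, 142 and 1588, 0 to 1157 without single libraries, and 148 (116 to 32) with total counts. The difference of the within-set changes rose from 0 to 76 with DESeq2 and was 0 to 3 without single libraries. Between references, 197 (105 higher, 92 lower) became 658 with DESeq2, 40 to 784 without single libraries, and split 139 to 48 with total counts.

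Replicate numbers did not pair the samples. With a replicate block the counts were 72, 77 and 88 in the first 3 comparisons, and among members the Hoxa5tdTomato call of Lmo4 (adjusted p = 0.0530) and the driven call of Lmo2 (0.118) were not made. For Hoxa5tdTomato against driven the block had 3 levels and was chosen after seeing the data, as was the fit of 4 groups without driven replicate 3. Depth limits Lhx9, Ldb2 and Lmo1, whose reads were few.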
